A study of Homo sapiens and Mus musculus with 100 samples.

Results

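Messenger RNA of 10 human genes of hepcidin signalling and iron handling is described: HAMP, ID1, SMAD7, TFR2, TFRC, SLC11A2, SLC40A1, FTL, FTH1 and CP. They were chosen by symbol, with the day 12 values of the HepG2 time course and of the AhR inhibitor experiment already known, so those values are given as a description with no test. The 10 genes are among 28035 listed in each of 6 human tables. In each of 2 mouse tables of 24940 genes, 9 have a symbol of the same name, and Ftl1, the mouse ferritin light chain, and Hamp2, a near copy of Hamp, are given beside them.

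The study kept cells or mice with or without vitamin B2 (riboflavin, the precursor of flavin cofactors) and asked how far the response runs through AhR (aryl hydrocarbon receptor), a transcription factor switched on by small molecules. HepG2, an established human liver cancer line, was sampled in control and B2_minus medium at days 3, 6, 9 and 12. Further HepG2 experiments at day 12 paired both media with or without AhRinh, an AhR inhibitor (10 µM in the column headers), with or without IDO_TDOinh, an inhibitor of the enzymes that open the tryptophan ring, and with a control guide RNA (Cont_gRNA) or a guide RNA against AhR (AhR_gRNA). Another day 12 experiment gave DMSO or Kyn, read here as kynurenine, a tryptophan product, each with or without AhRinh. Its column headers give no dose of AhRinh, and no B2_minus group is part of that experiment. Caco2, an established human colon cancer line, was sampled in both media at day 9. Hepatocytes of AhR_flox mice, whose Ahr gene can be cut by Cre recombinase, carried Ad_Cont or Ad_Cre (read here as adenovirus without or with Cre) in both conditions, and whole mouse liver came from control and B2_minus animals. Both mouse sets are labelled 4 weeks. The labels do not say what the 4 weeks refer to, nor animal age, sex or strain, and they do not name the inhibitors, the guide site or the number of clones. Groups hold 3 libraries, and the liver groups 4 columns each.

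Hepcidin is a peptide hormone of hepatocytes that binds ferroportin, the cellular iron exporter encoded by SLC40A1, and causes its removal, so that less iron enters plasma from the gut, macrophages and liver. Hepatocytes transcribe HAMP through bone morphogenetic protein (BMP) receptors and SMAD proteins when iron is plentiful, and through interleukin-6 and STAT3 during inflammation. Separately, iron regulatory proteins bind hairpins called iron-responsive elements when cellular iron is low. Binding in a 5′ untranslated region blocks translation and binding in the 3′ untranslated region of TFRC stabilises the message.

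The iron-responsive elements are shown because the ferritin, ferroportin and transferrin receptor results are about messages that carry them. Hairpins of this form were searched in 1 GENCODE transcript of each of the 10 genes (GRCh38), as a bulged C, 5 bases, the loop CAGTG with a last base other than G, and 5 bases that pair with the first 5. They are shown for the ferritin, ferroportin and transferrin receptor messages, with the loop in capitals.
FTH1, 5′ untranslated region, chr11:61967575-61967601, minus strand: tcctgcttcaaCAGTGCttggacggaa
FTL, 5′ untranslated region, chr19:48965336-48965362, plus strand: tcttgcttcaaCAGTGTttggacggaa
SLC40A1, 5′ untranslated region, chr2:189580662-189580688, minus strand: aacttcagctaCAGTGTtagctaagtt
TFRC, 3′ untranslated region, chr3:196050980-196051006, minus strand: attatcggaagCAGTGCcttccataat
TFRC, 3′ untranslated region, chr3:196050576-196050602, minus strand: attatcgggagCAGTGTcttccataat
TFRC, 3′ untranslated region, chr3:196050511-196050537, minus strand: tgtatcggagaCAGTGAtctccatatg
TFRC, 3′ untranslated region, chr3:196050464-196050490, minus strand: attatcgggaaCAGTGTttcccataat
Such a hairpin was found in the 5′ region of 13 of 18191 transcripts (0.071%) and in the 3′ region of 75 (0.412%). It was not found in the 1 transcript searched for each of HAMP, ID1, SMAD7, TFR2, SLC11A2 and CP. SLC11A2 is known to have an isoform with a 3′ element, which that search does not bear on. The table holds mRNA levels only, so translation through these elements was not measured.

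The values are TPM (transcript abundance scaled for length and depth) as the authors deposited them, from a 3′ end library kit for the cells. The listed TPM of a library summed to between 359500 and 405213 in human and between 569555 and 581347 in mouse tables. Levels are comparable between groups of one table and not between genes. Reads recovered from the values ranged from 4049600 to 19428000 per human library and from 6263500 to 19644000 per mouse library. Markers checked the labels: all 8 hepatocyte markers reached 1 TPM in HepG2 and 7 of 8 in both mouse sets. In Caco2 5 or 6 of 8 enterocyte markers did, against 1 or 2 of 8 in groups of the HepG2 time course. All 8 hepatocyte markers also reached 1 TPM in Caco2, at a higher sum than its enterocyte markers. The count of hepatocyte markers therefore does not tell the lines apart. Reads of FTL and FTH1 may be shared with their processed pseudogenes, and reads of Hamp with Hamp2. In these bulk samples, fewer cells of a type and less RNA per cell cannot be told apart. Values after ± are SD for TPM and standard errors for differences in log2(TPM + 1), with n = 3 libraries a group. Adjusted p-values are from limma over all genes tested in a table, and a gene is said to rise or fall where the adjusted p is under 0.05.

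In HepG2, HAMP fell with time in culture in both media, and fell less in vitamin B2-free medium. HAMP (chromosome 19, 35282346 to 35285142) stood at 292, 320.1 and 273 TPM in the day 3 controls and at 251, 267 and 261 in the deprived cultures. At day 6 the controls held 86.6, 86.6 and 98.9 TPM and the deprived cultures 236, 214 and 199. The groups did not overlap at day 3, with the controls above, nor at day 6, with the deprived cultures above. At day 9 HAMP was 17.9, 15.1 and 13.7 TPM in controls against 113, 133 and 121. At day 12 it was 0.996, 1.404 and 0.360 TPM in controls, which rest on 8, 10 and 3 reads, against 97.3, 104 and 121. Deprived cultures thus held 7.88 times the control mean at day 9. The HAMP difference was −0.18 ± 0.15 (adjusted p = 0.569) at day 3, 1.24 ± 0.15 (adjusted p = 1.75e-06) at day 6 and 2.90 ± 0.15 (adjusted p = 3.38e-12) at day 9. At day 12, which served to choose the gene, it was 5.85. Between days 3 and 9 HAMP fell by 4.16 ± 0.15 in controls (adjusted p = 1.52e-14) and fell by 1.08 ± 0.15 in deprived cultures (adjusted p = 6.94e-06). The difference between those changes was 3.09 ± 0.21 (adjusted p = 1.31e-09).

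**Figure D1:**
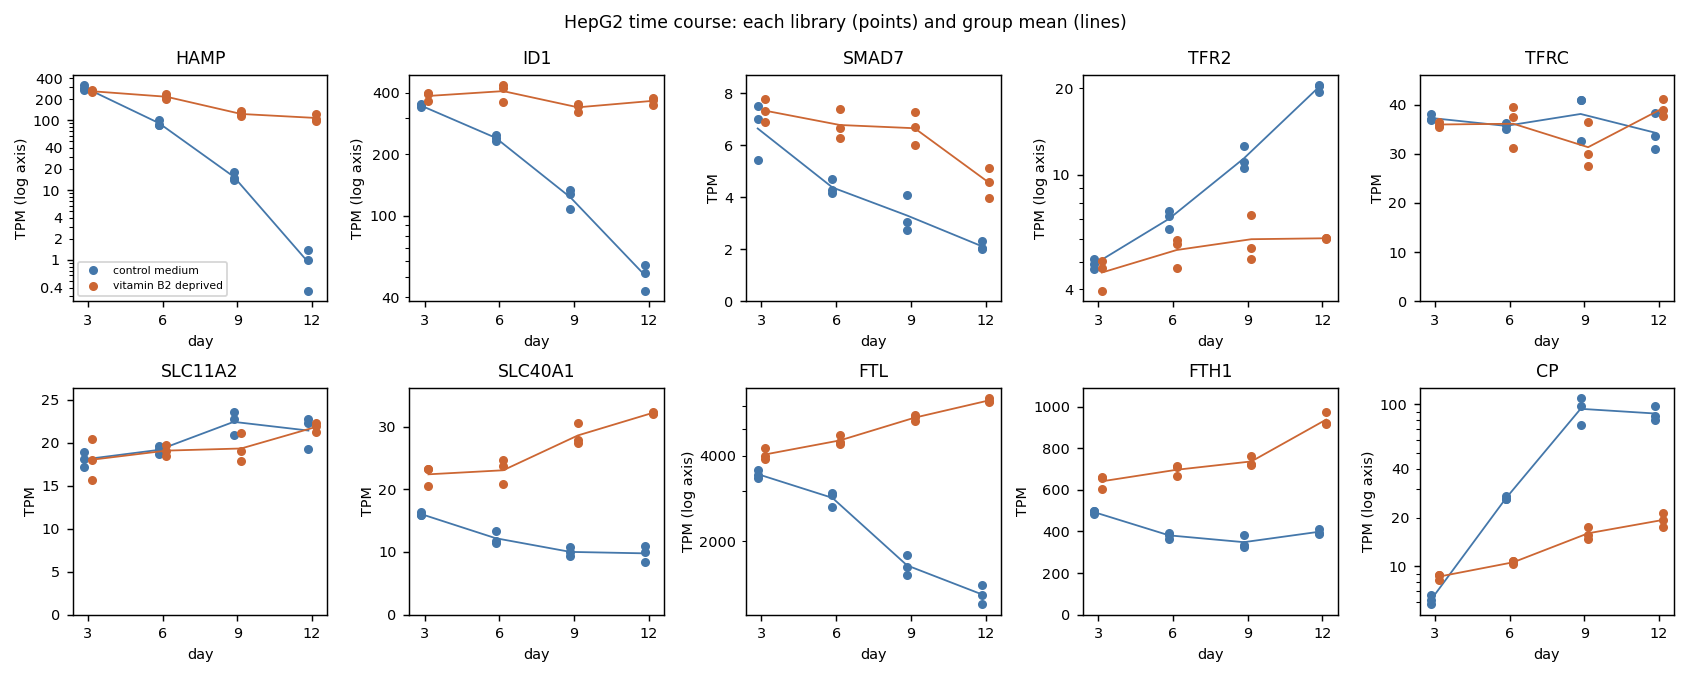
TPM of the 10 genes in HepG2 by day (x axis, days 3, 6, 9 and 12), with 1 point per library, lines through group means, blue for control medium and orange for vitamin B2-free medium; the y axes of HAMP, ID1, TFR2, FTL and CP are logarithmic and the others start at 0. HAMP, ID1 and FTL fell in controls while SLC40A1 and FTL climbed in deprived cultures, and CP and TFR2 climbed in controls.

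ID1, an inhibitor of basic helix-loop-helix factors that is a direct BMP target, and SMAD7, an inhibitor of SMAD signalling that the pathway induces, were also higher in deprived cultures at days 6 and 9. ID1 in controls was 347, 350.4 and 340.1 TPM at day 3 and 128, 133 and 108 at day 9, whereas deprived cultures held 363, 398 and 395 and 324, 343 and 351. The ID1 difference was 0.15 ± 0.09 (adjusted p = 0.369) at day 3, 0.75 ± 0.09 (adjusted p = 5.62e-07) at day 6 and 1.46 ± 0.09 (adjusted p = 4.98e-12) at day 9. It was 2.82 at day 12, where controls held 51.1 ± 7.52 TPM and deprived cultures 365 ± 14.2. ID1 fell from day 3 to day 9 in controls (−1.49 ± 0.09), while in deprived cultures its change of −0.18 ± 0.09 did not pass the test (adjusted p = 0.0931). SMAD7 was 3.06, 2.74 and 4.09 TPM in day 9 controls and 6.00, 6.71 and 7.28 in deprived cultures. Those SMAD7 groups did not overlap, and its difference was 0.53 ± 0.11 (adjusted p = 8.66e-04) at day 6 and 0.84 ± 0.11 (adjusted p = 1.99e-06) at day 9. TFR2, the transferrin receptor of hepatocytes that feeds into hepcidin control, went the other way. TFR2 was 10.6, 12.6 and 11.1 TPM in day 9 controls and 7.23, 5.12 and 5.58 in deprived cultures, a difference of −0.84 ± 0.10 (adjusted p = 2.77e-07). The TFR2 change in controls from day 3 to day 9 was 1.07 ± 0.10. At day 6 TFR2 fell by 0.31 ± 0.10 (adjusted p = 0.0168), a call that did not hold without day 6 control replicates 2 or 3 or day 6 deprived replicate 3 (adjusted p of 0.05 to 0.109).

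The importers TFRC and SLC11A2 moved little up to day 9 of the time course. TFRC, the transferrin receptor of most cells, was 40.9, 40.9 and 32.5 TPM in day 9 controls. In deprived cultures TFRC was 30.0, 27.5 and 36.5 TPM, and the groups overlapped. Its difference there was −0.28 ± 0.10 (adjusted p = 0.0225). SLC11A2, the proton-coupled importer DMT1, was 23.5, 22.8 and 20.9 TPM against 19.0, 17.8 and 21.1, also with overlap, and differed by −0.21 ± 0.08 (adjusted p = 0.0361). The TFRC call did not hold without day 9 control replicates 1 or 2 or day 9 deprived replicates 1 or 2 (adjusted p of 0.0712 to 0.144), and the SLC11A2 call did not hold without day 9 control replicates 1 or 2 or day 9 deprived replicates 1 or 2 (adjusted p of 0.0822 to 0.167). On recovered reads (limma voom), neither was called (adjusted p = 0.132 for TFRC and 0.415 for SLC11A2). At days 3 and 6 neither TFRC nor SLC11A2 passed the test.

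The exporter and the ferritins were higher in deprived cultures at every day. SLC40A1 was 15.9, 16.4 and 15.8 TPM in day 3 controls and 23.3, 23.3 and 20.6 in deprived cultures, and 10.8, 9.30 and 9.93 against 27.9, 27.4 and 30.5 at day 9. Its groups did not overlap at any day. The SLC40A1 difference grew from 0.45 ± 0.08 (adjusted p = 0.0016) at day 3 through 0.87 ± 0.08 at day 6 to 1.43 ± 0.08 (adjusted p = 3.08e-12) at day 9. FTL, the light chain of the iron store ferritin, was 3344, 3439 and 3568 TPM in day 3 controls and 3899, 4000.0 and 4251 in deprived cultures. At day 9 FTL was 1619.8, 1519.6 and 1780.3 TPM against 5481, 5586 and 5325, and at day 12 its means were 1296 ± 102 and 6293 ± 105. FTL thus fell in controls (−1.08 ± 0.06 from day 3 to day 9) and rose in deprived cultures (0.43 ± 0.06). The FTL difference was 0.23 ± 0.06 (adjusted p = 0.0211) at day 3 and 1.74 ± 0.06 (adjusted p = 1.52e-16) at day 9; the day 3 call did not hold without day 3 control replicates 1 or 2 or day 3 deprived replicates 2 or 3 (adjusted p of 0.056 to 0.105). FTH1, the ferritin heavy chain with the ferroxidase site, was 496, 499 and 483 TPM against 659, 604 and 662 at day 3 and 382, 337 and 326 against 727, 719 and 765 at day 9. FTH1 differed by 0.38 ± 0.05 (adjusted p = 1.01e-04) at day 3 and 1.08 ± 0.05 (adjusted p = 1.77e-13) at day 9. SLC40A1, FTL and FTH1 are the 3 messages with a 5′ hairpin printed above, and whether the hairpin bears on these mRNA levels was not tested.

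CP, the plasma ferroxidase ceruloplasmin, crossed over. It was 6.19, 6.66 and 5.82 TPM in day 3 controls against 8.82, 8.85 and 8.17 in deprived cultures, a difference of 0.41 ± 0.10 (adjusted p = 0.0207). By day 9 controls held 98.3, 109 and 74.2 TPM and deprived cultures 14.8, 15.6 and 17.5, a difference of −2.47 ± 0.10 (adjusted p = 8.77e-15). CP rose in both media between days 3 and 9, by 3.70 ± 0.10 in controls and 0.82 ± 0.10 in deprived cultures. The day 3 call for CP did not hold without day 3 control replicates 1 or 3 or day 3 deprived replicates 1 or 2 (adjusted p of 0.0632 to 0.0909), nor on recovered reads (adjusted p = 0.143).

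Of the 10 genes, 4 rose at day 3 (SLC40A1, FTL, FTH1 and CP), where 4.74% of 12488 genes tested were called. At day 6, with 33% of all genes called, 6 rose and 2 fell (TFR2 and CP). At day 9, with 49.1% called, 6 rose (HAMP, ID1, SMAD7, SLC40A1, FTL and FTH1) and 4 fell (TFR2, TFRC, SLC11A2 and CP). At day 12, 6 were higher and 2 lower, beside 52.4% of all genes called, a count that the choice of genes used. The median difference over the 10 was 0.14, 0.60 and 0.96 at days 3, 6 and 9, against 0.02, 0.03 and 0.06 over all genes. The genes were chosen with day 12 of this same time course known, so these medians are a description only. From day 3 to day 9, 3 of the 10 rose and 6 fell in controls (59.3% of all genes called), and 5 rose and 1 fell in deprived cultures (42.4%). In deprived cultures the FTH1 rise did not hold under quantile normalization (adjusted p = 0.236) and the TFR2 rise did not hold without day 3 deprived replicate 2 or day 9 deprived replicate 1 (adjusted p of 0.0876 to 0.121). Marker sums moved alongside: the 8 hepatocyte markers summed to 7136 to 7185 TPM in day 3 controls and 24266 to 25472 in day 12 controls, against 6342 to 6654 and 8504 to 8921 in deprived cultures. The 6 biliary markers, 4 of them at 1 TPM or more, summed to 927 to 966 and 250.2 to 263 TPM in controls of those days against 1144 to 1241 and 1239.6 to 1276. Their part in the results was not tested. The macrophage list had 1 of 8 markers at 1 TPM or more in each of these groups, with C1QA at 0 in all 4. Its sum was 4.66 to 6.31 and 4.72 to 5.46 TPM in controls of days 3 and 12 and 5.31 to 7.38 and 10.1 to 10.6 in deprived cultures, without overlap at day 12, and its part was not tested. The stellate or fibroblast sum was 19.0 to 24.4 TPM in day 12 controls and 5.23 to 5.57 in deprived cultures. Of 8 erythroid markers 4 are listed in the table, and none of those reached 1 TPM.

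Over the 24 time course libraries, the genes whose log2 levels ran closest to HAMP among 4671 with a mean of at least 10 TPM were ID3 (Pearson r 0.995), KRT19 (0.990), PPIC (0.985), NDUFS5 (0.982) and IFI30 (0.980). ID1 stood at rank 7 of that order (0.977). The 24 libraries include those of day 12 that served to choose the genes, so the coefficients of the 10 genes are no independent evidence. FTL reached 0.822, SLC40A1 0.676, FTH1 0.557 and TFRC 0.101, and SLC11A2 (−0.559) and CP (−0.909) ran against HAMP. These libraries share days and media, so the coefficients describe a common course. ID3, another BMP-induced inhibitor of helix-loop-helix factors, had means of 102 and 91.9 TPM at day 3 in controls and deprived cultures, respectively. The day 9 means of ID3 were 17.0 and 54.6 TPM, and those of day 12 6.04 and 53.6.

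The other genes of the pathway were described by fixed lists, to be read beside the 49.1% of all genes called at day 9. Of 13 tested genes of BMP and SMAD sensing, 4 rose and 3 fell at day 9, with a median of −0.09 against 0.06 over all genes. ID3 rose by 1.63 ± 0.08 (adjusted p = 4.62e-13). BMP6, the ligand that reports liver iron, was called in deprived cultures at day 3 in the downward direction (−0.32 ± 0.07, adjusted p = 0.00688) and was not called at day 9. Of 8 genes of the interleukin-6 and STAT3 input, 5 rose at day 9 and none fell, STAT3 by 0.76 ± 0.07 (adjusted p = 1.76e-08), with a list median of 0.35. Of 10 tested genes of iron uptake and cytosolic handling, 2 rose and 5 fell. TF, the plasma iron carrier transferrin, was 758 ± 31.8 against 3128 ± 116 TPM (−2.04 ± 0.05, adjusted p = 1.57e-18), and the importer SLC39A14 was 81.5 ± 3.47 against 163 ± 4.01 TPM (−0.996 ± 0.06). Of 5 genes of the iron regulatory protein system, 1 rose and 2 fell at day 9. Of 17 tested genes of mitochondrial iron and iron-sulfur assembly, 8 rose and 2 fell at day 9, with a list median of 0.37. FDXR, the flavoprotein that passes electrons to the ferredoxins of cluster assembly, was 41.0 ± 1.099 against 12.9 ± 3.19 TPM (1.62 ± 0.13, adjusted p = 1.50e-09), and BOLA3, a cluster assembly factor, was 264 ± 8.31 against 114 ± 6.45 TPM (1.21 ± 0.07).

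In a separate day 12 experiment the inhibitor of tryptophan breakdown was added, which asks whether that pathway is needed for the response. Without it HAMP, ID1, SMAD7, SLC40A1, FTL and FTH1 rose and TFR2, TFRC and CP fell, and with it ID1 alone of the 10 passed the test. HAMP was 2.17, 1.42 and 0.799 TPM in controls and 41.4, 39.8 and 52.6 in deprived cultures without inhibitor, and 1.78, 0.930 and 1.73 and 4.63, 3.36 and 3.17 with it. All 3 deprived cultures without inhibitor were far above every other library, and the deprived cultures with inhibitor lay above their own controls without overlap. The HAMP difference was 4.24 ± 0.22 (adjusted p = 1.48e-08) without inhibitor and 0.93 ± 0.22 (adjusted p = 0.0732) with it. The latter passed at a filter of 5 TPM (adjusted p = 0.049). The difference between both HAMP effects was −3.30 ± 0.31 (adjusted p = 5.18e-06). ID1 was 55.3, 57.7 and 56.0 TPM against 271, 249 and 272 without inhibitor and 51.8, 50.1 and 59.2 against 78.6, 91.3 and 77.6 with it. ID1 rose in both settings, by 2.21 ± 0.07 (adjusted p = 6.22e-13) and by 0.61 ± 0.07 (adjusted p = 7.63e-04), and the effects differed by −1.60 ± 0.10.

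FTL was 1466, 1190.1 and 1182 TPM in controls and 7815, 7379 and 7624 in deprived cultures without inhibitor, and 1307, 1146 and 1274 against 1151, 1112 and 1236 with it. The FTL difference was 2.58 ± 0.08 (adjusted p = 2.21e-12) without and −0.09 ± 0.08 (adjusted p = 0.729) with inhibitor, and the pair of inhibitor groups overlapped. FTH1 differed by 1.73 ± 0.07 without and 0.02 ± 0.07 (adjusted p = 0.948) with inhibitor. SLC40A1 was 4.21, 4.95 and 4.51 TPM against 16.5, 17.1 and 16.8 without inhibitor (1.68 ± 0.11) and 5.73, 4.95 and 4.16 against 4.81, 6.28 and 5.09 with it (0.11 ± 0.11, adjusted p = 0.788). CP was 46.7, 58.7 and 62.1 TPM against 7.54, 7.55 and 7.18 without inhibitor (−2.74 ± 0.10) and 57.6, 64.1 and 56.3 against 68.9, 63.6 and 56.4 with it (0.08 ± 0.10, adjusted p = 0.833). TFR2 was 9.41 ± 0.272 against 33.1 ± 0.599 TPM without inhibitor (−1.71 ± 0.07), whereas with it the difference was −0.09 ± 0.07 (adjusted p = 0.661). TFRC fell by 0.28 ± 0.08 (adjusted p = 0.00508) without inhibitor. With inhibitor TFRC was 48.9 ± 0.838 against 40.8 ± 2.14 TPM, deprived against control, without overlap (0.26 ± 0.08, adjusted p = 0.153), and was called on recovered reads (adjusted p = 0.0128). SMAD7, at 2.72 TPM or less in every library, rose by 0.58 ± 0.15 (adjusted p = 0.00329) without inhibitor, a call that ended under quantile normalization (adjusted p = 0.0826) and median scaling (adjusted p = 0.148). SLC11A2 differed by −0.25 ± 0.11 (adjusted p = 0.0539) and passed under both of those scalings (adjusted p = 2.27e-04 and 1.50e-04) and without control replicate 1 or deprived replicate 2 (adjusted p of 0.00273 to 0.0369).

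Without inhibitor 6 of the 10 rose and 3 fell, where 67.9% of 11470 genes were called and the median over all genes was 0.30. With inhibitor 1 rose, ID1, where 1.39% of all genes were called. The effects differed for 9 of the 10, where 53.7% of all genes differed; SMAD7 was among the 9, a call that ended under quantile normalization (adjusted p = 0.128), under median scaling (adjusted p = 0.195), with no filter (adjusted p = 0.0573) and without deprived replicate 3 or control with IDO_TDOinh replicate 2 or deprived with IDO_TDOinh replicate 2 (adjusted p of 0.0505 to 0.0633). SLC11A2 would join them under quantile normalization (adjusted p = 0.00412), under median scaling (adjusted p = 0.00318) and without control replicate 1 (adjusted p = 0.0148). In control medium the inhibitor changed none of the 10 by limma, with none at an unadjusted p under 0.05 and none on recovered reads, and 1 of 11470 genes in all. On the fixed lists, without inhibitor 12 of 17 genes of mitochondrial iron and iron-sulfur assembly rose and 1 fell, FDXR by 2.35 ± 0.09, and TF was 738 ± 28.8 against 4515 ± 458 TPM (−2.61 ± 0.06). With inhibitor, ID3 (0.55 ± 0.09, adjusted p = 0.00638) and GLRX5, a carrier of iron-sulfur clusters (−0.24 ± 0.05, adjusted p = 0.0212), were the only genes of these lists to pass. The hepatocyte marker sum was 28361 to 28812 TPM in controls and 9528 to 9836 in deprived cultures without inhibitor, and 28980.3 to 29651 and 24664 to 25752 with it. The biliary sum was 99.9 to 119 and 702 to 752 TPM without inhibitor and 105 to 117 and 112 to 122 with it. The macrophage list had 1 of 8 markers at 1 TPM or more in the time course groups given above. Its sum here was 7.05 to 7.58 and 15.2 to 17.2 TPM without inhibitor and 7.76 to 8.23 and 6.84 to 8.49 with it. Their part in these results was not tested.

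**Figure D2:**
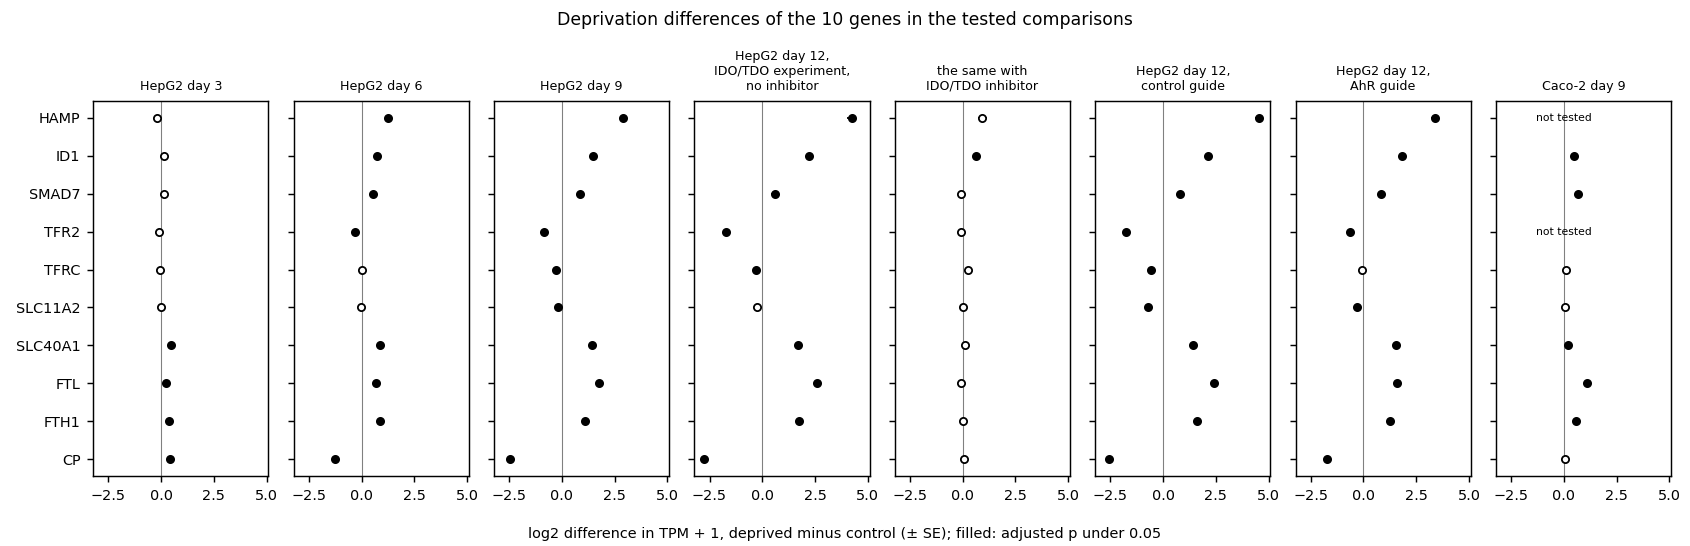
Differences in log2(TPM + 1) between deprived and control samples (x axis, with standard errors) for the 10 genes (y axis) in 8 tested comparisons, 1 panel each, with filled points at an adjusted p under 0.05. The HAMP difference went from −0.18 at day 3 to 2.90 at day 9, and with the IDO/TDO inhibitor ID1 has the only filled point.

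The guide RNA experiment asked how the response depends on AhR. AHR mRNA was 5.14 ± 1.19 TPM with the control guide and 4.71 ± 0.206 with the AhR guide in control medium, and 6.81 ± 1.26 and 7.70 ± 0.557 in deprived medium. Reads of 3′ ends do not check an edit elsewhere in the gene, so the loss of AhR was not checked here. The sample labels name the guide only, and the column headers of the whole experiment read AhR_KO. With the AhR guide, HAMP was higher in control medium and deprivation still raised it. HAMP was 3.05, 1.74 and 3.72 TPM with the control guide in control medium (17, 10 and 22 reads) and 13.3, 10.3 and 13.4 with the AhR guide. In deprived medium it was 77.9, 89.2 and 89.5 and 125, 139 and 152 TPM. None of these 4 groups overlapped. Deprivation raised HAMP by 4.53 ± 0.17 (adjusted p = 2.66e-09) with the control guide and by 3.39 ± 0.17 (adjusted p = 5.21e-08) with the AhR guide, and the effects differed by −1.14 ± 0.25 (adjusted p = 0.0117). The AhR guide raised HAMP by 1.82 ± 0.17 (adjusted p = 1.76e-05) in control medium. In deprived medium it raised HAMP by 0.69 ± 0.17 (adjusted p = 0.0278), a call that did not hold without deprived with control guide replicates 1 or 2 or 3 or deprived with AhR guide replicates 2 or 3 (adjusted p of 0.0606 to 0.0917).

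FTL, CP and TFR2 also stood apart with the AhR guide in control medium. With the AhR guide against the control guide in control medium, 3 of the 10 were higher and 4 lower, beside 36.7% of 11893 genes called. In deprived medium 2 were higher and 1 lower, beside 12% of all genes. FTL was 1310.3, 1354 and 1569.8 TPM with the control guide and 2613, 2392 and 2396 with the AhR guide in control medium, a rise of 0.81 ± 0.06 (adjusted p = 5.23e-07). In deprived medium FTL was 7194, 7381 and 7564 and 7566, 7536 and 7084 TPM, which overlapped (0.00 ± 0.06, adjusted p = 0.985). FTH1 was 1019, 1005 and 1035 TPM with the control guide and 758, 753 and 788 with the AhR guide in deprived medium, without overlap, and was lower with the AhR guide (−0.41 ± 0.05, adjusted p = 1.42e-04). CP was 73.7, 80.3 and 66.0 TPM and 32.0, 35.5 and 34.4 in control medium, a difference of −1.08 ± 0.08, and 12.1, 11.0 and 11.8 and 8.71, 10.5 and 9.63 in deprived medium. TFR2 was 24.7, 29.2 and 24.4 and 15.6, 14.5 and 14.4 TPM in control medium (−0.77 ± 0.09) and 6.36, 6.66 and 7.76 and 9.03, 9.17 and 9.68 in deprived medium (0.38 ± 0.09). ID1 rose with the AhR guide in control medium by 0.41 ± 0.06 (adjusted p = 8.37e-05), while TFRC (−0.58 ± 0.07) and SLC11A2 (−0.31 ± 0.07) fell. SLC40A1 (−0.20 ± 0.08, adjusted p = 0.0589), FTH1 (−0.05 ± 0.05, adjusted p = 0.503) and SMAD7 (0.08 ± 0.14, adjusted p = 0.685) did not pass there. The lower SLC40A1 was called at a filter of 5 TPM (adjusted p = 0.0472), at a pseudocount of 0.1 (adjusted p = 0.0498), under quantile normalization (adjusted p = 0.0101), under median scaling (adjusted p = 0.0109) and without control with AhR guide replicate 2 (adjusted p = 0.0274). TFRC was 41.6, 40.0 and 36.6 TPM in controls with the control guide and between 23.9 and 28.4 in the other 3 groups.

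With the control guide deprivation moved all 10 genes, 6 up and 4 down, beside 60.7% of 11893 genes. ID1 rose by 2.15 ± 0.06, SMAD7 by 0.80 ± 0.14, SLC40A1 by 1.43 ± 0.08, FTL by 2.39 ± 0.06 and FTH1 by 1.63 ± 0.05, and the differences of those that fell were −1.77 ± 0.09 for TFR2, −0.56 ± 0.07 for TFRC, −0.69 ± 0.07 for SLC11A2 and −2.55 ± 0.08 for CP. With the AhR guide the same 6 rose and 3 fell, beside 53.2% of all genes, and TFRC did not pass (−0.05 ± 0.07, adjusted p = 0.583). ID1 then rose by 1.83 ± 0.06, SMAD7 by 0.81 ± 0.14, SLC40A1 by 1.54 ± 0.08, FTL by 1.58 ± 0.06 and FTH1 by 1.26 ± 0.05, and the differences were −0.62 ± 0.09 for TFR2, −0.30 ± 0.07 for SLC11A2 and −1.72 ± 0.08 for CP. The effects differed for 8 of the 10, beside 14.4% of all genes, and for each of the 8 the effect with the AhR guide was nearer to 0. The share of all genes with an effect nearer to 0 is not given here. In the main fit the guides differed in FTL in control medium and not in deprived medium, and for FTH1 the reverse held. For SLC40A1 (0.11 ± 0.11, adjusted p = 0.567) and SMAD7 (0.01 ± 0.20, adjusted p = 0.985) no difference was called. Among the 8, FTH1 and ID1 did not pass under quantile normalization (adjusted p = 0.0534 and 0.07). In the mitochondrial iron and iron-sulfur list, 12 of 17 genes rose with the control guide and 11 with the AhR guide, none fell, and 4 had a smaller effect with the AhR guide. ID3 rose by 2.30 ± 0.07 with the control guide and 1.24 ± 0.07 with the AhR guide (difference −1.06 ± 0.10, adjusted p = 1.73e-05). Hepatocyte markers summed to 25008 to 25674 TPM in controls with the control guide and 21603 to 22474 with the AhR guide, and biliary markers to 139 to 152 and 197 to 212. In deprived medium the hepatocyte sums were 8125 to 8392 and 9339 to 9775 TPM and the biliary sums 667 to 700.3 and 787 to 820.4. The macrophage list, with 1 of 8 markers at 1 TPM or more in the time course groups given above, was summed as well. With the control guide its sum was 6.97 to 8.30 TPM in controls and 16.9 to 17.7 in deprived cultures, and with the AhR guide 3.91 to 5.10 and 9.79 to 11.3. Their part was not tested.

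Kyn was given in place of deprivation, and HAMP was lower with it than with DMSO. HAMP was 8.54, 9.78 and 10.7 TPM with DMSO and 2.85, 5.53 and 4.30 with Kyn, and with AhRinh 8.49, 10.5 and 12.7 and 0.409, 3.55 and 3.71. The lowest library, with Kyn and AhRinh, rests on 2 reads. All Kyn libraries lay below all DMSO libraries. The HAMP difference was −1.06 ± 0.43 (adjusted p = 0.149) without AhRinh, called on recovered reads (adjusted p = 0.00994), and −1.88 ± 0.43 (adjusted p = 0.0244) with it. The call with AhRinh did not hold at a pseudocount of 0.1 (adjusted p = 0.0595) and without DMSO with AhRinh replicates 1 or 2 or 3 (adjusted p of 0.0542 to 0.0781). No difference between the effects was called (−0.82 ± 0.60, adjusted p = 0.456). ID1 was 143, 159.6 and 135 TPM with DMSO and 95.0, 128 and 107 with Kyn, and 163, 159 and 149.7 and 82.9, 104 and 106 with AhRinh. ID1 fell by 0.41 ± 0.11 (adjusted p = 0.031) without AhRinh, which did not hold without DMSO replicates 1 or 2 or Kyn replicates 1 or 3 (adjusted p of 0.0728 to 0.108), and fell by 0.69 ± 0.11 (adjusted p = 0.00248) with AhRinh.

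SLC40A1 rose and CP fell with Kyn, the directions seen with deprivation in HepG2. SLC40A1 was 5.63, 7.30 and 7.91 TPM with DMSO and 11.7, 10.6 and 10.3 with Kyn, a rise of 0.58 ± 0.12 (adjusted p = 0.0052). CP was 95.8, 109 and 116 and 68.6, 75.5 and 69.4 TPM, a difference of −0.58 ± 0.08 (adjusted p = 5.41e-04). With AhRinh CP was 88.3, 108 and 102 and 104, 107 and 99.0 TPM (0.05 ± 0.08, adjusted p = 0.722), and the CP effects differed by 0.63 ± 0.11 (adjusted p = 0.00452). TFRC was 40.5, 41.9 and 39.4 TPM with DMSO and 30.8, 31.9 and 31.8 with Kyn (−0.36 ± 0.06, adjusted p = 0.00264), and 38.1 ± 1.62 against 41.6 ± 2.87 TPM, Kyn against DMSO, with AhRinh (−0.12 ± 0.06, adjusted p = 0.238). The ferritins did not pass: FTL was 1780.4 ± 119.7 against 1627 ± 68.1 TPM, Kyn against DMSO (0.13 ± 0.05, adjusted p = 0.123), and FTH1 429 ± 8.55 against 417 ± 14.8 (0.04 ± 0.05, adjusted p = 0.632). FTL passed on recovered reads (adjusted p = 0.0248), under quantile normalization (adjusted p = 6.48e-04) and without Kyn replicate 2 (adjusted p = 0.042).

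Kyn raised 1 of the 10 (SLC40A1) and lowered 3 (TFRC, CP and ID1), beside 11.7% of 11798 genes. With AhRinh none rose and 2 fell (HAMP and ID1), beside 10.8% of all genes, and the effects differed for 1, CP, beside 8.94%. AhRinh without Kyn changed none of 11798 genes by limma, with 520 of them and none of the 10 at an unadjusted p under 0.05, and none of the 10 on recovered reads. Within Kyn, AhRinh raised TFRC (0.27 ± 0.06) and CP (0.53 ± 0.08) and lowered FTH1 (−0.19 ± 0.05), beside 21.9% of 11798 genes called. The FTH1 call did not hold under median scaling (adjusted p = 0.648) or without Kyn replicate 2 or Kyn with AhRinh replicate 3 (adjusted p of 0.0594 to 0.0648). With AhRinh, Kyn lowered BMP6 (−0.53 ± 0.08) and ID3 (−0.90 ± 0.12), 2 of 13 tested genes of BMP and SMAD sensing, and raised none. The hepatocyte marker sum was 13188 to 14270.0 TPM with DMSO and 14463 to 15279 with Kyn, and 13208 to 13809 and 16893 to 18039.9 with AhRinh. The biliary sum was 166 to 169 and 161 to 174 TPM without and 153 to 161 and 116 to 124 with AhRinh. The stellate or fibroblast sum was 12.8 to 13.4 and 13.5 to 15.5 TPM without and 13.0 to 13.4 and 6.51 to 7.22 with AhRinh. Their part was not tested.

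**Figure D3:**
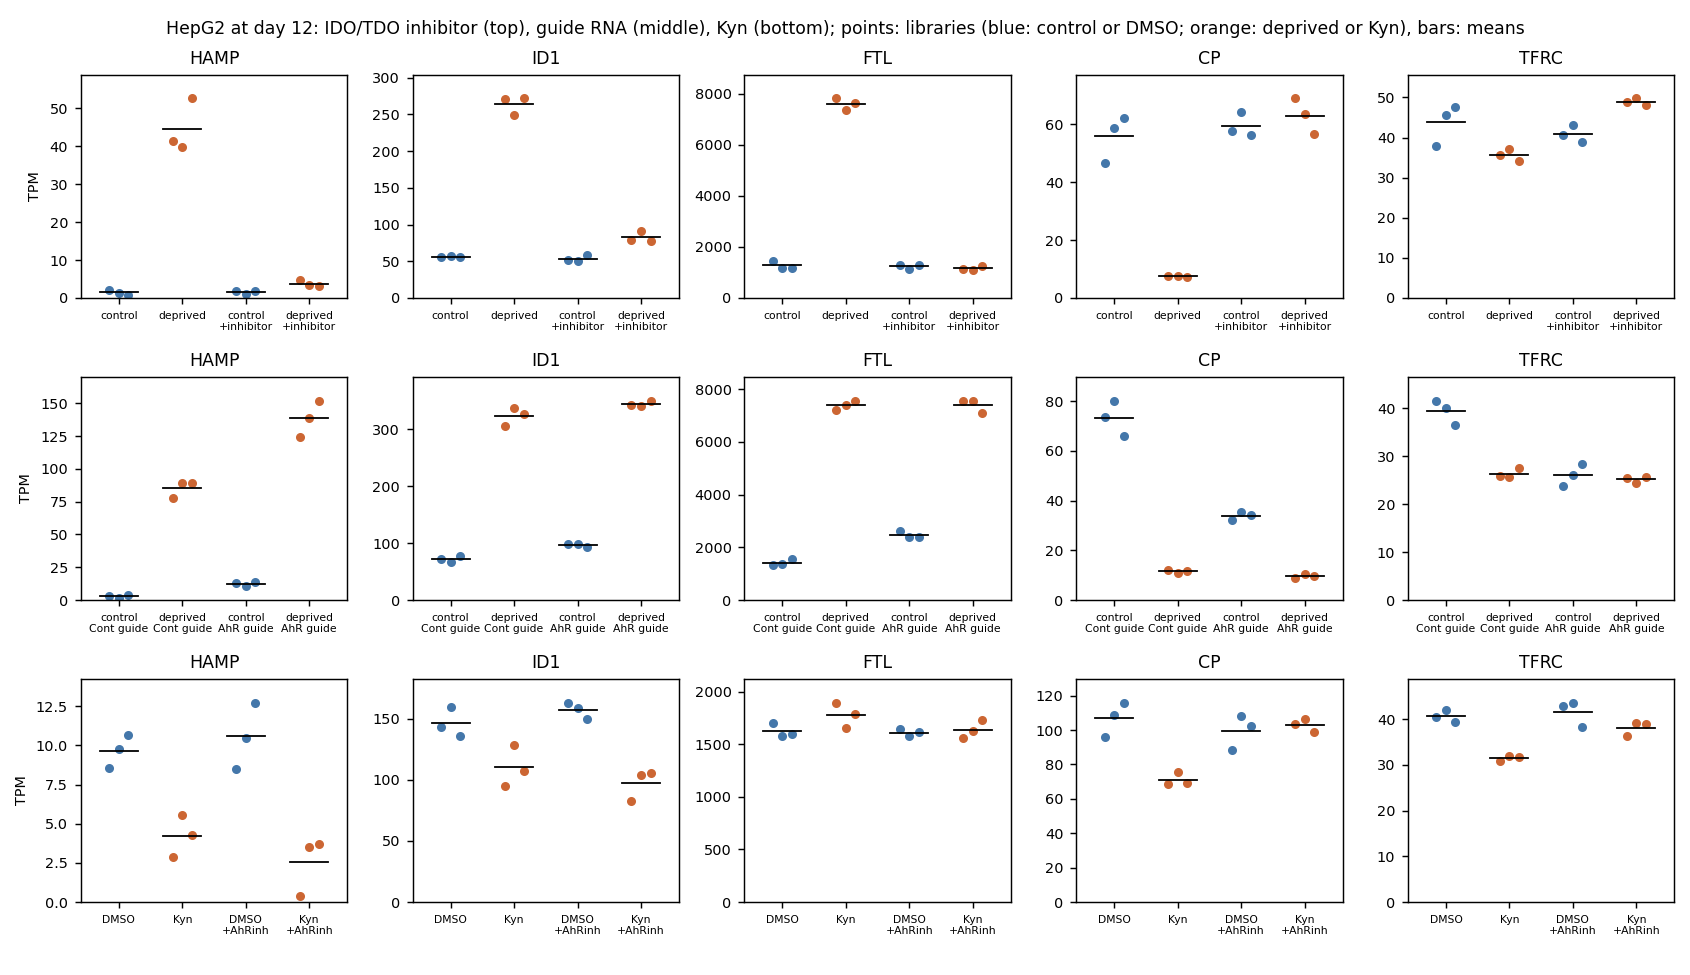
TPM (y axes from 0) of HAMP, ID1, FTL, CP and TFRC in 3 HepG2 experiments at day 12, 1 row each, with 1 point per library, bars at group means, blue for control or DMSO and orange for deprived or Kyn. With the IDO/TDO inhibitor FTL and CP overlap between media while HAMP, ID1 and TFRC of deprived cultures lie above their controls, with the AhR guide HAMP stays high in deprived medium, and with Kyn HAMP lies below DMSO.

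The AhR inhibitor experiment served to choose the genes and is described without tests. The column headers carry another date for the libraries with AhRinh and name a flow cell only for those without it, so effects of the inhibitor and of that difference cannot be told apart. HAMP was 3.24, 3.64 and 2.10 TPM in controls and 172, 174 and 157 in deprived cultures without AhRinh, and 1.98, 2.28 and 1.25 and 199.7, 206 and 214 with it, differences of 5.42 and 6.21. Both deprived groups were far above both control groups. ID1 was 98.7, 92.7 and 107 and 430.1, 429 and 411 TPM without AhRinh and 69.5, 51.4 and 28.0 and 435, 440.0 and 466 with it. Replicate 3 of the controls with AhRinh stood apart, with the lowest ID1 and also the lowest CP (62.3, 64.2 and 43.2 TPM) and SLC11A2 (28.8, 26.2 and 18.4) of its group; without it the ID1 difference with AhRinh was 2.88 in place of 3.24. SLC40A1 was 7.62, 6.79 and 7.84 and 38.6, 34.8 and 33.0 TPM without AhRinh and 11.3, 13.1 and 13.4 and 26.6, 23.1 and 26.2 with it. The SLC40A1 difference was 2.11 without and 0.95 with AhRinh. FTL differed by 2.17 and 2.05, FTH1 by 1.90 and 0.87, and CP by −3.10 and −3.80. By the fit, 6 of the 10 were higher and 2 lower without AhRinh (61.5% of all genes called), 6 higher and 3 lower with it (57.5%), and 6 differed between both (22.5%). These counts share the values that chose the genes and nothing is read from them.

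In Caco2 cells HAMP was not detectable beyond 1 read, while the ferritins again were higher without vitamin B2. HAMP had 1 read in control replicate 1 and 0 in the other 5 libraries, where 0 allows up to 3 reads, or 0.573 to 0.694 TPM per library. TFR2 was at most 0.516 TPM. Neither was tested, which leaves 8 of the 10. FTL was 1009, 999.9 and 974 TPM in controls and 2085, 2052 and 2149.8 in deprived cultures, a rise of 1.07 ± 0.04 (adjusted p = 7.97e-08). FTH1 was 174, 164 and 186.5 TPM against 254, 265 and 264, a rise of 0.58 ± 0.06 (adjusted p = 3.57e-05). In both ferritins every deprived library was above every control. ID1 was 34.0, 27.3 and 33.4 TPM against 42.9, 46.0 and 44.8 (0.49 ± 0.09, adjusted p = 0.00164), and SMAD7 2.45, 2.25 and 4.01 against 5.41, 4.85 and 5.32 (0.69 ± 0.16, adjusted p = 0.00816). SLC40A1 was 67.8, 74.8 and 72.7 TPM against 84.5, 81.8 and 78.6, a rise of 0.18 ± 0.06 (adjusted p = 0.0379) that did not hold without control replicates 1 or 3 or deprived replicates 1 or 2 (adjusted p of 0.064 to 0.128) or on recovered reads (adjusted p = 0.0831). TFRC was 32.3 ± 0.8001 against 30.1 ± 0.735 TPM, deprived against control (0.10 ± 0.07, adjusted p = 0.277). SLC11A2 differed by 0.07 ± 0.08 (adjusted p = 0.57), and CP, at 1.73 ± 0.110 against 1.63 ± 0.197 TPM, by 0.06 ± 0.13 (adjusted p = 0.78). Of the 8, 5 rose and none fell, beside 33.7% of 11888 genes called. Of the fixed lists, BMP2, a BMP ligand, rose by 0.84 ± 0.08 (adjusted p = 3.36e-05), and the differentiation factor CEBPA (−1.15 ± 0.10), TF (−0.79 ± 0.09) and BOLA3 (−0.44 ± 0.06) fell. The enterocyte markers summed to 142 to 149.7 TPM in controls and 88.7 to 94.4 in deprived cultures. The hepatocyte markers summed to 2878 to 2968 and 1574 to 1781 TPM. Their part was not tested.

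In mouse hepatocytes with Ad_Cont, Hamp, Id1 and Ftl1 fell with deprivation, and no gene of the set passed with Ad_Cre. Ahr mRNA was 9.65 ± 0.365 TPM with Ad_Cont and 7.79 ± 0.592 with Ad_Cre in controls, and 10.2 ± 0.415 and 7.10 ± 0.382 in deprived hepatocytes, and 3′ reads outside a cut exon do not measure the deletion. With Ad_Cont, Hamp was 1013, 785 and 835 TPM in controls and 568, 528 and 753 in deprived hepatocytes, a difference of −0.52 ± 0.12 (adjusted p = 0.0225). Every deprived library was below every control. The Hamp call did not hold without control Ad_Cont replicates 1 or 3 or deprived Ad_Cont replicates 1 or 2 (adjusted p of 0.051 to 0.0989). Id1 was 334, 308 and 332 TPM against 258, 224 and 263 and fell by 0.39 ± 0.06 (adjusted p = 0.00136). Smad7 was 12.0, 10.1 and 11.1 TPM against 8.78, 6.91 and 8.82 without overlap; its difference of −0.40 ± 0.13 (adjusted p = 0.0717) was called on recovered reads (adjusted p = 0.00813). Ftl1 was 912, 846 and 898 TPM against 769, 682 and 622 and fell by 0.36 ± 0.08 (adjusted p = 0.00856). Slc40a1 differed by −0.03 ± 0.09 (adjusted p = 0.876), Tfrc by 0.12 ± 0.08 (adjusted p = 0.38), Fth1 by −0.15 ± 0.12 (adjusted p = 0.472) and Cp by 0.02 ± 0.12 (adjusted p = 0.941). Deprived Ad_Cont replicate 1 had the highest Fth1 (1635, 1205 and 1062 TPM) and the lowest Cp (2169, 3118 and 3234), and without it both were called (Fth1 −0.33, adjusted p = 0.00303; Cp 0.20, adjusted p = 0.0185).

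With Ad_Cre, Hamp was 867, 796 and 847 TPM in controls and 784, 737 and 863 in deprived hepatocytes, which overlapped (−0.08 ± 0.12, adjusted p = 0.896). Id1 was 326, 304 and 329 against 290.1, 295 and 292 TPM (−0.13 ± 0.06, adjusted p = 0.505) and Ftl1 696, 704 and 789.7 against 784, 719 and 824 (0.09 ± 0.08, adjusted p = 0.76). The test of the difference between both settings gave 0.44 ± 0.18 (adjusted p = 0.322) for Hamp, 0.26 ± 0.09 (adjusted p = 0.235) for Id1 and 0.45 ± 0.11 (adjusted p = 0.103) for Ftl1, so no difference was called. The Ftl1 difference was called on recovered reads (adjusted p = 0.0252) and without deprived Ad_Cont replicate 1 or control Ad_Cre replicate 3 (adjusted p of 0.0125 to 0.0407). Of the 9 genes, 2 fell with Ad_Cont (Hamp and Id1), beside 9.78% of 12155 genes. By limma none was called with Ad_Cre, beside 0.329% of all genes, with 0 of the 9 at an unadjusted p under 0.05 and 0 on recovered reads. None was called for the difference between both, beside 0.247%, with 2 at an unadjusted p under 0.05 and 0 on recovered reads, while Fth1 and Cp were called without deprived Ad_Cont replicate 1 (adjusted p = 0.0225 and 0.0149). Of the fixed lists, Steap1, the iron chaperone Pcbp1 and the mitochondrial importer Slc25a37 fell with Ad_Cont (Slc25a37 −0.50 ± 0.08, adjusted p = 9.44e-04). The biliary marker sum was 833 to 931 TPM in controls and 256 to 589 in deprived hepatocytes with Ad_Cont, and 924 to 1116 and 658 to 759 with Ad_Cre. The stellate or fibroblast sum was 18.8 to 24.9 and 6.51 to 9.47 TPM with Ad_Cont and 24.1 to 26.6 and 13.9 to 16.4 with Ad_Cre. Their part was not tested.

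In mouse liver Hamp varied widely within each diet, and no difference by diet was called. The 4 control columns held 1065, 2351, 1289 and 1732 TPM and the 4 deprived columns 1776, 804, 2076 and 1899 (0.00 ± 0.35, adjusted p = 0.997). Hamp2 was 22.8, 72.5, 21.6 and 28.4 TPM in controls and 131, 71.3, 108 and 139 in deprived livers. The Hamp2 groups overlapped in 1 column of each, and its difference was 1.74 ± 0.41 (adjusted p = 0.0645). Hamp2 was called at a filter of 5 TPM (adjusted p = 0.0463), on recovered reads (adjusted p = 0.0434) and without control column 2 (2.13, adjusted p = 0.00108). Id1 was 15.0, 15.7, 8.97 and 14.9 TPM against 18.2, 16.8, 16.5 and 23.9, and Fth1 1343, 1411, 1317 and 1593 against 1634, 2259, 1711 and 1743. In Id1 and Fth1 all deprived columns were above all control columns, but neither passed the test (0.45 ± 0.18, adjusted p = 0.141 for Id1 and 0.37 ± 0.14, adjusted p = 0.124 for Fth1). Tfrc was between 3.00 and 9.65 TPM in controls and between 4.49 and 12.1 in deprived livers (0.58 ± 0.41, adjusted p = 0.41). Tfr2 differed by 0.00 ± 0.13 (adjusted p = 0.991), Slc40a1 by 0.07 ± 0.16 (adjusted p = 0.811) and Cp by 0.04 ± 0.15 (adjusted p = 0.901). By limma none of the 9 genes was called, beside 3.41% of 10820 genes, with 2 of the 9 at an unadjusted p under 0.05 and none on recovered reads. Of the fixed lists, Fdx1, a mitochondrial ferredoxin, fell (−0.49 ± 0.11, adjusted p = 0.035). The median over all genes was 0.14. Erythroid markers, from red cell precursors or blood in the tissue, summed to 224 to 346 TPM in controls and 128 to 293 in deprived livers, and their part was not tested.

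**Figure D4:**
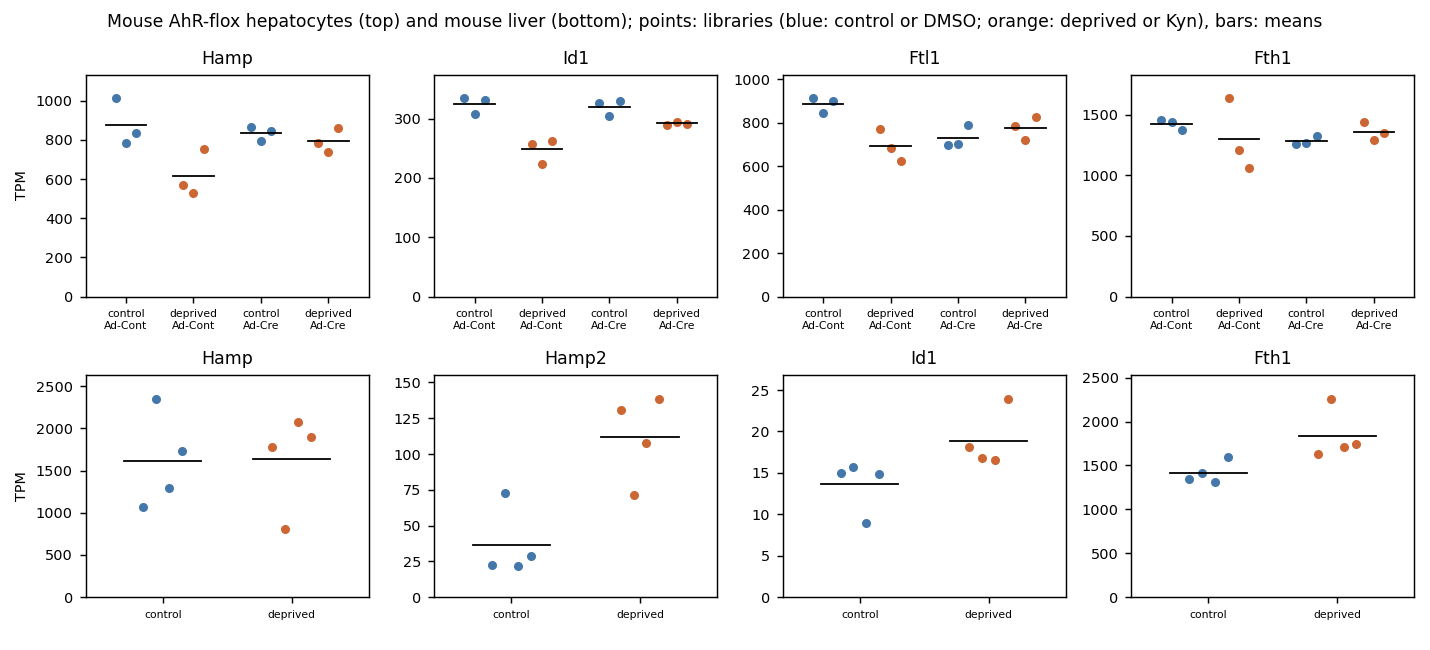
TPM (y axes from 0) of Hamp, Id1, Ftl1 and Fth1 in mouse AhR_flox hepatocytes (top row) and of Hamp, Hamp2, Id1 and Fth1 in mouse liver (bottom row), with 1 point per library, bars at group means, blue for control and orange for deprived. Hamp was lower in deprived hepatocytes with Ad_Cont, and in liver Hamp overlapped between diets while 3 of 4 deprived livers held more Hamp2 than any control.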

How the data were processed

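Libraries of 3′ ends were made with an oligo(dT) kit, per the labels' protocols; the kit used for liver is not given in the sources used here. TPM values were deposited by the authors in 8 tables, and STAR, HOMER and Bowtie2 with hg38 and mm10 are named, without roles, in the submitters' processing notes. In each library TPM times transcript length came in whole multiples of 1 value, taken as 1 read (100% of values checked, up to 20 reads, within 0.1 of a whole number). Each table was fitted alone with limma 3.58.1 in R 4.3.3 on log2(TPM + 1) for genes that reached 1 TPM in 3 libraries (for liver, 4), with a group-means model, moderated variances (trend, robust) and Benjamini-Hochberg adjustment per comparison, at a threshold of 0.05, over 34 comparisons. The fit was tested on simulated data. Named beside the 10 are, per fixed list and comparison, at most the 2 called genes of largest difference with a mean of at least 5 TPM, and the 5 genes most correlated with HAMP (mean of at least 10 TPM). The 10 genes and all lists were chosen with earlier results of these data known. No label states that replicates are independent cultures or mice; each p-value therefore reflects the spread among these libraries, which may be technical. Liver columns name diet and not animal, 8 columns stand for 10 labelled samples, and the other 2 were not analysed here. Alternatives were a pseudocount of 0.1, no filter, a filter of 5 TPM, quantile normalization, voom on recovered reads, a replicate block, leaving out each library, and, chosen after seeing the data, median scaling. 1 sequence result is not reported here.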

Additional observations from a re-analysis of the deposited data

Results flagged for a closer look

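In the time course the effect of deprivation at day 9 differed from that at day 3, by a test of that difference with limma, for 8 of the 10 genes. The difference in log2(TPM + 1) was 3.09 for HAMP, 1.30 for ID1, 0.71 for SMAD7, 0.97 for SLC40A1, 1.51 for FTL and 0.70 for FTH1, and it was −0.75 for TFR2 and −2.88 for CP. Over all genes 31% were called in that test.

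The IDO/TDO inhibitor altered the effect of deprivation by −3.30 for HAMP, −1.60 for ID1, −0.65 for SMAD7, −1.57 for SLC40A1, −2.67 for FTL and −1.71 for FTH1, and by 1.62 for TFR2, 0.54 for TFRC and 2.83 for CP. With the AhR guide in place of the control guide the effect changed by −1.14 for HAMP, −0.32 for ID1, −0.81 for FTL and −0.37 for FTH1, and by 1.15 for TFR2, 0.51 for TFRC, 0.39 for SLC11A2 and 0.83 for CP. The effect of Kyn on CP differed with AhRinh by 0.63.

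Among the 4 control livers, 1 column stood apart from the other 3 in Id1, at 8.97 TPM, and 1 in Hamp2, at 72.5 TPM. Chance marks about 1 in 20 groups in this way.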

How the results depend on the processing

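Leaving out the day 12 time course and AhR inhibitor comparisons, which served to choose the genes, 129 of 284 gene-by-comparison results were called. Over all genes the share called ran from 0% to 67.9% between these comparisons, so the pooled count describes stability only. Of the 129 calls, 111 were kept in every setting run and 18 were lost in at least 1, and 32 results without a call gained one. Counted apart from these is FTL with the AhR guide against the control guide in deprived medium. It was not called in the main fit (0.00) and was called lower under quantile normalization (−0.14, adjusted p = 0.0455), and the cause was not tested. With the IDO/TDO inhibitor the count of the 10 genes called went from 1 to 2 with a filter of 5 TPM, voom on recovered reads or the replicate block. For Kyn with AhRinh it went from 2 to 1 at a pseudocount of 0.1 and to 4 under quantile normalization and voom, and for the Kyn interaction from 1 to 3 under quantile normalization, median scaling and voom. Leaving out 1 library gave counts of 2 to 3 at day 3, 7 to 8 at day 6, 8 to 10 at day 9 and 4 to 5 in Caco2. They were 9 to 10 without and 1 to 1 with the IDO/TDO inhibitor (8 to 10 for the interaction). With the control and AhR guides they were 10 to 10 and 9 to 9 (8 to 8 for the interaction). For Kyn they were 3 to 5 without and 1 to 2 with AhRinh (1 to 1 for the interaction). Hepatocytes gave 1 to 3 with Ad_Cont and 0 to 0 with Ad_Cre (0 to 2 for the interaction), and liver 0 to 0. The shares of all genes called in the main fit are given with each experiment. Same-numbered replicates did not deviate together in every pair of any comparison (correlations over 0.1 were required), so the replicate block is given here only. Under it the HAMP difference with the IDO/TDO inhibitor was called (adjusted p = 0.0487). HAMP in day 12 controls and Caco2 rests on few reads, which limits its fold.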

Other observations

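Hamp2 as a percentage of Hamp in the same liver column was 2.14, 3.08, 1.68 and 1.64 in controls and 7.38, 8.87, 5.18 and 7.29 in deprived livers, with no overlap. The ratio was looked at after its values were seen, reads of the near-identical copies may be shared, and no test was made.

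In control HepG2 cultures alone, 11 of 17 tested genes of mitochondrial iron and iron-sulfur assembly fell from day 3 to day 9 and none rose, where 59.3% of 12488 genes were called, 5475 of them lower and 1934 higher, while TF rose by 2.21 ± 0.05.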
